A study of Mus musculus with 6 samples.

Results

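T cells, the lymphocytes that recognise antigen through the T cell receptor, are described here by 10 genes: the receptor's signalling chains Cd3d, Cd3e and Cd3g, the adhesion molecule Cd2, the coreceptors Cd4, Cd8a and Cd8b1, the receptor-proximal kinases Lck and Zap70, and Foxp3, the transcription factor of regulatory T cells. They were taken by name, but earlier results of these data were known when they were chosen. Of the 10, 9 had an array probe set annotated to them alone, among 22180 such genes in all. Lck had none and was not analysed here. Each of the 9 had a single such probe set, and the values are log2 signals, so a difference of 1 is a doubling.

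The RNA came from mouse colorectal tumours grown after cancer cells were injected into white adipose tissue, the fat-storing tissue, or into non-adipose tissue. Each group had 3 tumours from 3 mice, taken at 1 to 1.5 cm3, with 1 tumour to an array. The labels name neither the cancer cell line, the mouse strain, the age, the exact injection sites nor any treatment, and they do not say which lymphocytes the hosts had. The comparison asks whether a tumour's surroundings went with a different level of T cell transcripts.

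The T cell receptor itself binds the antigen but has almost no signalling tail of its own. The CD3 chains carry the signalling motifs, and Lck, held near the receptor by the coreceptors CD4 and CD8, phosphorylates them, after which ZAP-70 docks and passes the signal on. CD4 marks helper and regulatory T cells and CD8 marks cytotoxic T cells, which can kill tumour cells. In a tumour these genes are read mostly from infiltrating lymphocytes, although some dendritic cells carry CD4 or CD8 alpha, and natural killer cells carry CD2 and ZAP-70.

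The 3 CD3 genes lie together on mouse chromosome 9, where Cd3g and Cd3d are read in opposite directions from starts 1355 bases apart and Cd3e starts 27825 bases beyond Cd3d. Their promoters are shown because these neighbouring genes were all highest in the same tumour of the non-adipose group, as the values below show. The other measured T cell genes, on other chromosomes, were also highest in that tumour among the non-adipose ones. The 250 bases before each start, 5′ to 3′ on the gene's strand, are those of RefSeq on GRCm38.p6, with Cd3g at chr9:44980432-44980681 (minus strand), Cd3d at chr9:44981536-44981785 (plus strand) and Cd3e at chr9:45009612-45009861 (minus strand). Capitals mark matches to 6 short motifs of lymphoid transcription factors on either strand.
Cd3g: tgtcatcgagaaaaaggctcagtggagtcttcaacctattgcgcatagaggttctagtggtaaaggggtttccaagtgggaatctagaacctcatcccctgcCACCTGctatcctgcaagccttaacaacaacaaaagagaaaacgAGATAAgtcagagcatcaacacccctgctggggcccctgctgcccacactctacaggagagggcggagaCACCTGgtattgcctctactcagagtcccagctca
Cd3d: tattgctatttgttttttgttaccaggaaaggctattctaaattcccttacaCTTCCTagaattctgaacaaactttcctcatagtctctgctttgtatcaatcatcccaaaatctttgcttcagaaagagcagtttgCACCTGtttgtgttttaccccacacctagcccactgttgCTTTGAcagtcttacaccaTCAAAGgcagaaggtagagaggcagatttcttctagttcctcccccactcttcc
Cd3e: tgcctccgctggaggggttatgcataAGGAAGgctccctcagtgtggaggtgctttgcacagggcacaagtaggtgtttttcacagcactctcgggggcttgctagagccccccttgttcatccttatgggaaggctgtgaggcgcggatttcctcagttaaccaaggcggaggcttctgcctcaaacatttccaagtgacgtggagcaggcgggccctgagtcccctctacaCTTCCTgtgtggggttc

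The motifs were searched on both strands in the 32851 RefSeq mouse promoter windows of the same length, and none overlapped another in the windows shown. The ETS motif, AGGAAG, was held by 29.5% of all windows. The first E-protein motif, CACCTG, was held by 17.2% and the second, CAGCTG, by 13.0%. The GATA motif was AGATAA, held by 9.99%. The RUNX motif was TGTGGT, held by 14.0%, and the TCF/LEF motif was CTTTGA, held by 13.8%. Cd3g held 2 matches to the first E-protein motif and 1 to the GATA motif. Cd3d held 2 matches to the TCF/LEF motif and 1 each to the first E-protein and the ETS motifs, and Cd3e held 2 to the ETS motif. A match of 6 letters is a description of the sequence and not a binding site. RefSeq windows were at hand for 7 of the 10 genes, and Cd2, Cd4 and Cd8b1 had no entry. Among the windows not shown, that of Cd8a held no match, and Lck, Zap70 and Foxp3 each held matches in at least 1 window. Whether the motifs go with the signals was not tested.

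No T cell gene differed between the sites beyond the spread of the tumours. The larger differences were inside the non-adipose group, where replicate 3 had high and replicate 2 low signals for most of these genes, and the white adipose tumours lay closer together, inside the non-adipose range for 6 of the 9 genes. In limma's fit over all 22180 genes, 0 of the 9 passed an adjusted p of 0.05 and 0 were at an unadjusted p under 0.05, where the shares of all genes were 0% and 3.79%. The groups of arrays overlapped for all 9, against 7.31% of all genes whose groups did not overlap. A higher mean in white adipose tumours was found for 8 of the 9 and a lower mean for Zap70, with a median difference of 0.23, while 49.7% of all genes had a higher mean there and their median difference was -0.00043. In these bulk samples, fewer T cells and less RNA per T cell cannot be told apart.

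**Figure D1:**
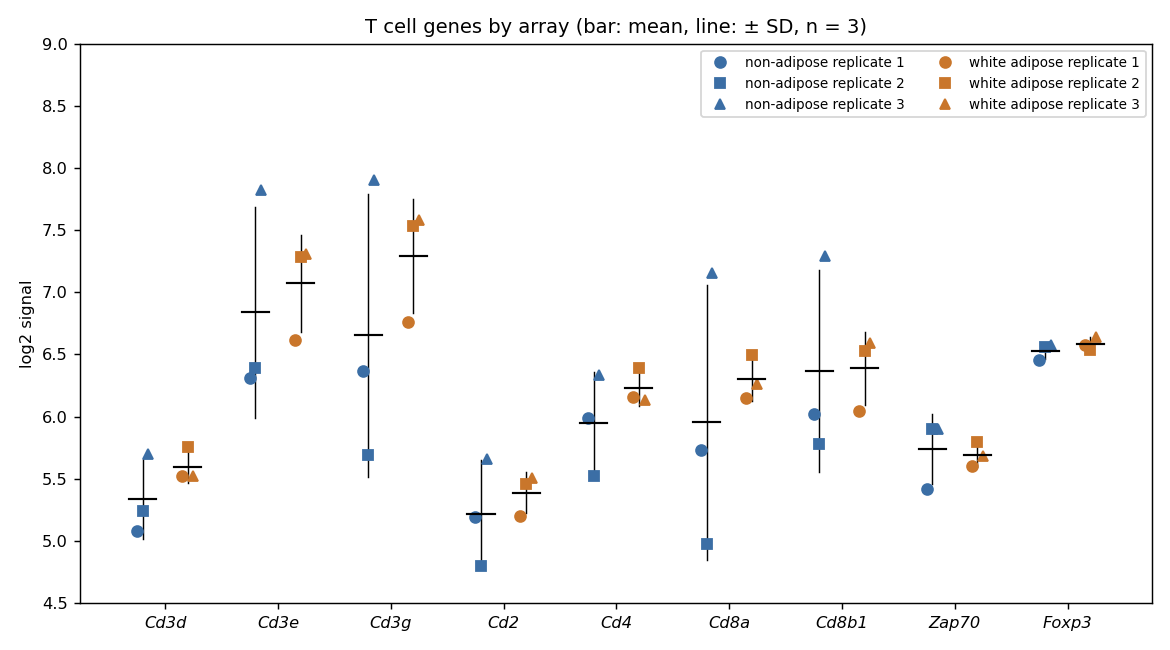
Log2 signal (vertical axis) of the 9 T cell genes on each of the 6 arrays; blue points are non-adipose and orange points white adipose tumours, with bars for the group means and lines for ± SD (n = 3). Non-adipose replicate 3 (blue triangles) is at or near the top for most genes and replicates 1 and 2 at the bottom, with the white adipose points between or beside them; Foxp3 stays between 6.45 and 6.64.

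Among the signalling chains, Cd3g varied most. It stood at 6.37, 5.69 and 7.91 in non-adipose replicates 1, 2 and 3, and at 6.76, 7.54 and 7.58 in white adipose replicates 1, 2 and 3. The non-adipose tumours thus held both the lowest and the highest value, 4.66-fold apart, and the white adipose values fell inside that range. The means were 6.65 ± 1.14 (SD, n = 3) and 7.29 ± 0.46 (SD, n = 3), a difference of 0.64 (SE 0.57, 95% confidence interval -0.76 to 2.04, limma adjusted p = 0.936).

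Cd3e, the chain most often used to mark T cells, stood at 6.31, 6.39 and 7.82 in the non-adipose and at 6.62, 7.29 and 7.31 in the white adipose tumours. Non-adipose replicate 3 was again the highest, and replicates 1 and 2 were the lowest and lay near each other. The difference was 0.23 (SE 0.44, 95% confidence interval -0.84 to 1.30, limma adjusted p = 0.958).

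Cd3d had weaker signal, at percentile 40.5 of all genes, and no detection call was at hand. It stood at 5.08, 5.24 and 5.70 in the non-adipose and at 5.52, 5.75 and 5.52 in the white adipose tumours. Here white adipose replicate 2 was the highest, just above non-adipose replicate 3. The difference was 0.26 (SE 0.17, 95% confidence interval -0.16 to 0.68, limma adjusted p = 0.936).

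The CD8 coreceptor of cytotoxic T cells is built from the products of Cd8a and Cd8b1, which lie close together on chromosome 6. Cd8a stood at 5.73, 4.98 and 7.15 in non-adipose replicates 1, 2 and 3 and at 6.15, 6.49 and 6.26 in white adipose replicates 1, 2 and 3. The non-adipose values were 4.52-fold apart from lowest to highest, and the white adipose values 1.27-fold apart and inside that range. The difference was 0.35 (SE 0.52, 95% confidence interval -0.93 to 1.63, limma adjusted p = 0.950).

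Cd8b1, which unlike Cd8a is largely restricted to T cells, stood at 6.02, 5.78 and 7.29 in the non-adipose and at 6.05, 6.53 and 6.59 in the white adipose tumours. The order of the non-adipose tumours was that of Cd8a, with replicate 3 above and replicate 2 below every white adipose tumour. The difference was 0.024 (SE 0.41, 95% confidence interval -0.97 to 1.01, limma adjusted p = 0.996).

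Cd4, the coreceptor of helper and regulatory T cells, had a narrower range. It stood at 5.99, 5.52 and 6.33 in the non-adipose and at 6.15, 6.39 and 6.14 in the white adipose tumours. Non-adipose replicate 2 was the lowest, and white adipose replicate 2 lay just above non-adipose replicate 3. The difference was 0.28 (SE 0.21, 95% confidence interval -0.23 to 0.79, limma adjusted p = 0.936).

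Cd2, whose product helps T cells and natural killer cells adhere to their partners, stood at 5.19, 4.80 and 5.66 in the non-adipose and at 5.20, 5.46 and 5.51 in the white adipose tumours. Its order within each group was that of Cd3g, and its signal lay at percentile 36.9 of all genes. The difference was 0.17 (SE 0.22, 95% confidence interval -0.37 to 0.71, limma adjusted p = 0.943).

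Zap70 and Foxp3 did not follow the other 7. Zap70 stood at 5.42, 5.90 and 5.90 in the non-adipose and at 5.61, 5.80 and 5.68 in the white adipose tumours, so that non-adipose replicates 2 and 3, far apart for Cd3g, were level for this kinase. Its difference was -0.046 (SE 0.15, 95% confidence interval -0.41 to 0.31, limma adjusted p = 0.977). Foxp3 stood at 6.45, 6.56 and 6.58 in the non-adipose and at 6.58, 6.54 and 6.64 in the white adipose tumours. Its whole range over 6 arrays was 0.19, at percentile 17.9 of the ranges of all genes, and its difference was 0.057 (SE 0.065, 95% confidence interval -0.10 to 0.22, limma adjusted p = 0.937). Without a detection call, whether the Foxp3 signal lay above background was not tested.

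The spread inside the groups was uneven. For all 9 genes the range of the non-adipose tumours was wider than that of the white adipose tumours, which held for 47.2% of all genes; the median range of the 9 was 0.86 against 0.31, and that of all genes 0.20 against 0.21. Non-adipose replicate 3 was the highest of the 6 arrays for 6 of the 9 genes (13.9% of all genes), and non-adipose replicate 2 was the lowest for 5 (14.9% of all genes) and non-adipose replicate 1 for the other 4. Replicate 3 exceeded replicate 2 by more than 1 for Cd3e, Cd3g, Cd8a and Cd8b1, which was so for 1.12% of all genes, a size chosen after the values were seen. These shares describe 3 tumours, and genes read from the same cells are not independent of each other.

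**Figure D2:**
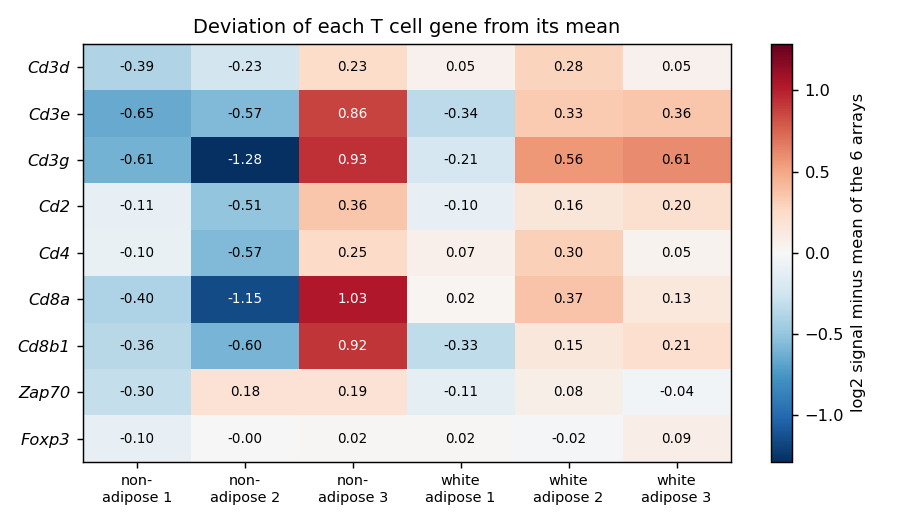
Log2 signal of each T cell gene minus its mean over the 6 arrays (colour and printed value), with genes as rows and tumours as columns. Non-adipose replicates 1 and 2 are below the mean and replicate 3 above it for the CD3, CD2, CD4 and CD8 genes, while Zap70 stays between -0.30 and 0.19 and Foxp3 between -0.10 and 0.09.

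Because the non-adipose tumours lay apart, the site difference depended on which of them was in the comparison. Averaged over the 9 genes, the arrays stood at 5.84, 5.65 and 6.71 in the non-adipose and at 6.07, 6.42 and 6.36 in the white adipose tumours, a difference of 0.22 between group means. Leaving out non-adipose replicate 3 gave 0.54, leaving out replicate 2 gave 0.011 and leaving out replicate 1 gave 0.11. Without replicate 3, Cd3g differed by 1.27, Cd8a by 0.95, Cd3e by 0.72, Cd8b1 by 0.49, Cd4 by 0.47, Cd3d by 0.44 and Cd2 by 0.39, and the groups of these 7 genes no longer overlapped (8.58% of all genes were so, in that direction). Of them, Cd3d, Cd3e, Cd3g, Cd4 and Cd8a were higher in white adipose tumours at an unadjusted p under 0.05, as were 2.52% of all genes, but each had a limma adjusted p of 0.873. Replicate 3 was the highest non-adipose array for each of these genes, so leaving it out had to raise their differences. The shares of all genes are therefore not a like comparison. With any other single array left out, 0 of the 9 genes were higher in white adipose tumours without overlap, beside 6.35% to 11.7% of all genes. In those fits 0 were at an unadjusted p under 0.05, where 1.34% to 3.69% of all genes were higher at that level. Without replicate 2, Cd8b1 differed by -0.27, Cd8a by -0.14 and Cd2 by -0.039, the other direction from that with all arrays. Cd3e turned to -0.033 without replicate 1. Zap70 turned to 0.035 without replicate 2 and to 0.036 without replicate 3.

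**Figure D3:**
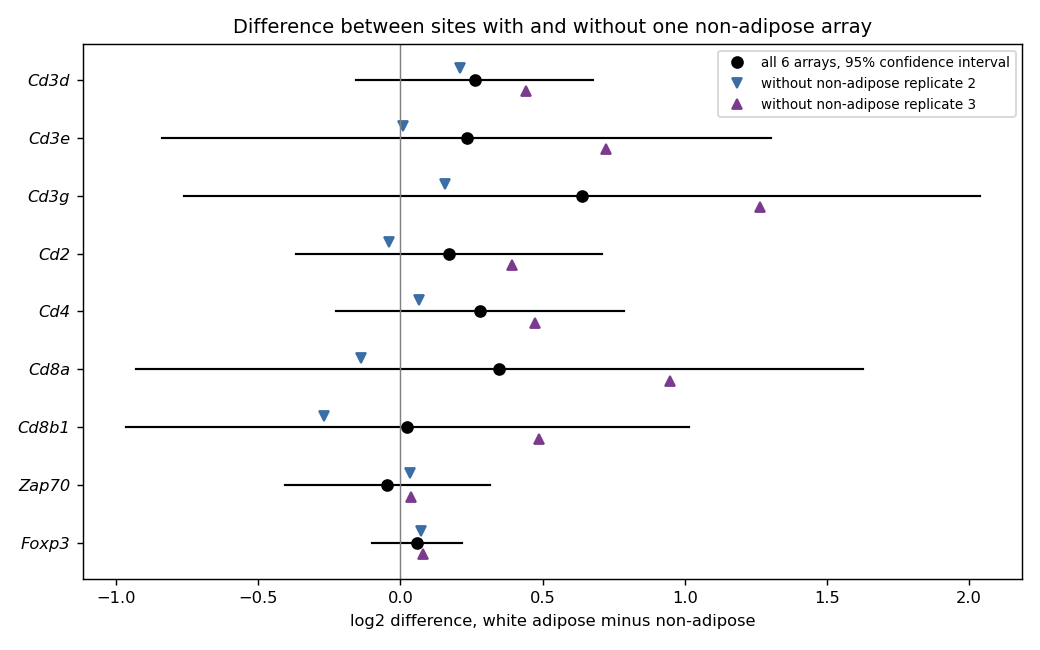
Difference in log2 signal, white adipose minus non-adipose (horizontal axis), for each T cell gene; black points with lines are all 6 arrays with limma's 95% confidence interval, and triangles leave out non-adipose replicate 2 or 3. Every interval spans 0, and Cd3g moves from 0.16 without replicate 2 to 1.27 without replicate 3.

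Other genes of T cell receptor signalling and of T cells in general were about evenly split between the sites. Of 46 listed, 35 had a probe set of their own; in white adipose tumours the mean was higher for 17 and lower for 18, with a median difference of -0.00091, and 0 passed the adjusted threshold. At an unadjusted p under 0.05 there were 2, both higher, where 1.66% of all genes were higher at that level. Trat1, an adaptor linked to the receptor, stood at 3.74, 3.76 and 3.77 in the non-adipose and at 3.97, 4.12 and 4.29 in the white adipose tumours, without overlap, at percentile 13.0 of all genes by signal (difference 0.37, SE 0.092, limma adjusted p = 0.936). Cd7, a surface protein of T and natural killer cells, differed by 0.31 (SE 0.11, limma adjusted p = 0.936) and its groups overlapped. Csk, the kinase that restrains Lck, and Malt1, which links the receptor to NF-kappaB, differed by -0.24 (SE 0.10) and -0.27 (SE 0.15). The groups of Csk, lower in white adipose tumours, did not overlap either, so that 2 of the 35 genes, 1 in each direction, had groups without overlap, beside 7.31% of all genes. Lat, the scaffold that ZAP-70 phosphorylates, differed by 0.090 (SE 0.12), and the costimulatory receptor Cd28 by 0.11 (SE 0.19). The list also holds genes not restricted to T cells, such as the pan-leukocyte gene Ptprc, so its even split need not reflect T cells. Csk and Malt1 had signals at percentiles 86.7 and 88.9 of all genes, above each of the 9 T cell genes. The cells they were read from were not tested.

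Within the non-adipose group this wider list ran the same way as the 9 genes. Non-adipose replicate 3 was the highest array for 17 of its 35 genes and replicate 2 the lowest for 13, with shares of 13.9% and 14.9% among all genes. Themis, a T cell signalling protein, stood at 4.96, 4.23 and 6.07 in the non-adipose and at 4.80, 5.27 and 5.36 in the white adipose tumours, and the phosphatase gene Ptpn22 at 6.64, 6.32 and 7.72 and at 6.58, 7.11 and 6.99. Both, named after their values were seen, repeat the order of Cd3g among the non-adipose tumours. Segments of the receptor chains themselves were less uniform. Of 8 V segment genes with a probe set, listed after the data were seen, 3 had a higher and 5 a lower mean in white adipose tumours, non-adipose replicate 3 was the highest array for 4 and replicate 2 the lowest for 3. Trav9d-3 of the alpha chain stood at 7.40, 6.52 and 9.07 in the non-adipose and at 7.38, 8.59 and 8.37 in the white adipose tumours. Other segments did not follow it, among them Trav7-4 at 5.68, 5.78 and 5.72 in the non-adipose tumours and Trgv6 of the gamma chain at 5.21, 4.77 and 4.77. V segments have close copies, so these probe sets can bind related transcripts and their values are uncertain. The constant region genes had no probe set under the symbols searched and were not analysed here.

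Genes of regulatory T cells and of T cell subsets gave no call either. Of 15 genes of the regulatory list, all measured, the mean was higher in white adipose tumours for 10 and lower for 5, with a median difference of 0.057. Of all genes, 49.7% had a higher mean there. At an unadjusted p under 0.05 there were 0 of the 15, beside 3.79% of all genes in either direction. Ikzf2, the transcription factor Helios, stood at 5.66, 5.34 and 6.43 in the non-adipose and at 5.93, 6.74 and 6.90 in the white adipose tumours, a difference of 0.71 (SE 0.36, limma adjusted p = 0.936). Il2ra, the high-affinity chain of the interleukin-2 receptor, differed by 0.44 (SE 0.29), Tigit, an inhibitory receptor, by 0.35 (SE 0.32), Nrp1, which many other cells also make, by 0.21 (SE 0.15), and Ctla4, another inhibitory receptor, by 0.044 (SE 0.28). The transcription factor and subset list had 22 genes, 19 of them measured, of which 11 lay higher and 8 lower in white adipose tumours, with a median of 0.017. Eomes, a factor of cytotoxic T and natural killer cells, was the 1 at an unadjusted p under 0.05, at 5.13, 5.23 and 5.06 in the non-adipose and 4.61, 4.89 and 4.88 in the white adipose tumours, without overlap (difference -0.35, SE 0.099, limma adjusted p = 0.936; 2.13% of all genes were lower at that level). Gata3, the factor of type 2 helper cells, differed by -0.19 (SE 0.092), also without overlap, Cxcr5, the homing receptor of follicular helper T cells, by -0.099 (SE 0.068) and Bcl6, the factor of those cells, by 0.15 (SE 0.11). Eomes and Gata3 were the 2 of the 19 genes whose groups did not overlap, beside 7.31% of all genes. The signal of Eomes lay at percentile 29.5 of all genes.

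Natural killer cell markers, averaged, were also lowest in non-adipose replicate 2 and highest in replicate 3. The mean over 12 genes was 5.32, 4.92 and 5.55 in non-adipose replicates 1, 2 and 3 and 5.23, 5.42 and 5.47 in white adipose replicates 1, 2 and 3. Of the 12, replicate 3 was the highest array for 5 and replicate 2 the lowest for 6, with shares of 13.9% and 14.9% among all genes. Gzma, a granzyme gene named after its values were seen, stood at 4.28, 3.52 and 3.47 in the non-adipose tumours. Nkg7, a granule protein of natural killer and cytotoxic T cells named after its values were seen, stood at 6.36, 6.26 and 7.57 in the non-adipose tumours, whereas Ncr1, the defining natural killer receptor, stood at 5.23, 5.14 and 5.32. The pan-leukocyte gene Ptprc, which encodes CD45, stood at 9.03, 8.49 and 9.30 there. Replicate 3 thus lay 0.81 above replicate 2 for Ptprc, as a difference on the log2 scale, which was close to the median of 0.86 over the 9 T cell genes. The 9 ran from 0.0023 for Zap70 and 0.019 for Foxp3, through 0.46 for Cd3d and 0.81 for Cd4, to 2.22 for Cd3g. The part of total leukocyte content in the differences of the T cell genes was not tested.

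As array means, the other marker lists varied less between those tumours than the 9 T cell genes and the natural killer markers. They did not all vary less than the wider T cell lists. The non-adipose SD was 0.26 for the lymph node list and 0.24 for the T cell signalling list. It was 0.14 for both the dendritic cell list and the T cell subset list. Macrophage and monocyte markers (12 genes) averaged 9.15, 9.14 and 9.28 in the non-adipose and 9.03, 9.20 and 9.17 in the white adipose tumours, with Adgre1, which encodes F4/80, at 8.74, 8.66 and 8.95 in the non-adipose tumours. In that list Mrc1, the mannose receptor, ran the other way, at 8.67, 9.11 and 7.96. Between the sites, Itgam was the 1 gene of the 12 at an unadjusted p under 0.05. It was lower in white adipose tumours (difference -0.22, SE 0.073, limma adjusted p = 0.936), as were 2.13% of all genes at that level. Itgam and Cd68 (difference -0.14, SE 0.080) had groups without overlap, beside 7.31% of all genes. B cell markers (10 genes) averaged 5.07, 4.94 and 5.04 and 4.80, 5.07 and 4.96, and dendritic cell markers (9 genes) 6.72, 6.47 and 6.70 and 6.54, 6.85 and 6.81, with the integrin gene Itgax at 7.66, 6.98 and 7.98 in the non-adipose tumours. Markers of lymph node stroma and vessels (7 genes), listed because fat depots can hold lymph nodes, averaged 5.21, 4.79 and 5.25 and 5.03, 5.04 and 5.05. Glycam1, the mucin of lymph node venules, stood at 4.92, 4.71 and 4.49 and at 4.45, 4.71 and 4.51, and did not rise with the CD3 genes in non-adipose replicate 3. Its signal was weak, at percentile 23.0 of all genes, and no detection call was at hand. In that list Cxcl13, which encodes a lymphocyte-attracting chemokine, stood at 7.99, 6.28 and 8.74 and at 7.74, 7.08 and 7.59. Adipocyte markers (9 genes) averaged 5.76, 5.73 and 5.82 and 5.52, 5.64 and 6.06, and epithelial markers (8 genes) 6.42, 6.55 and 6.57 and 6.89, 6.47 and 6.62.

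**Figure D4:**
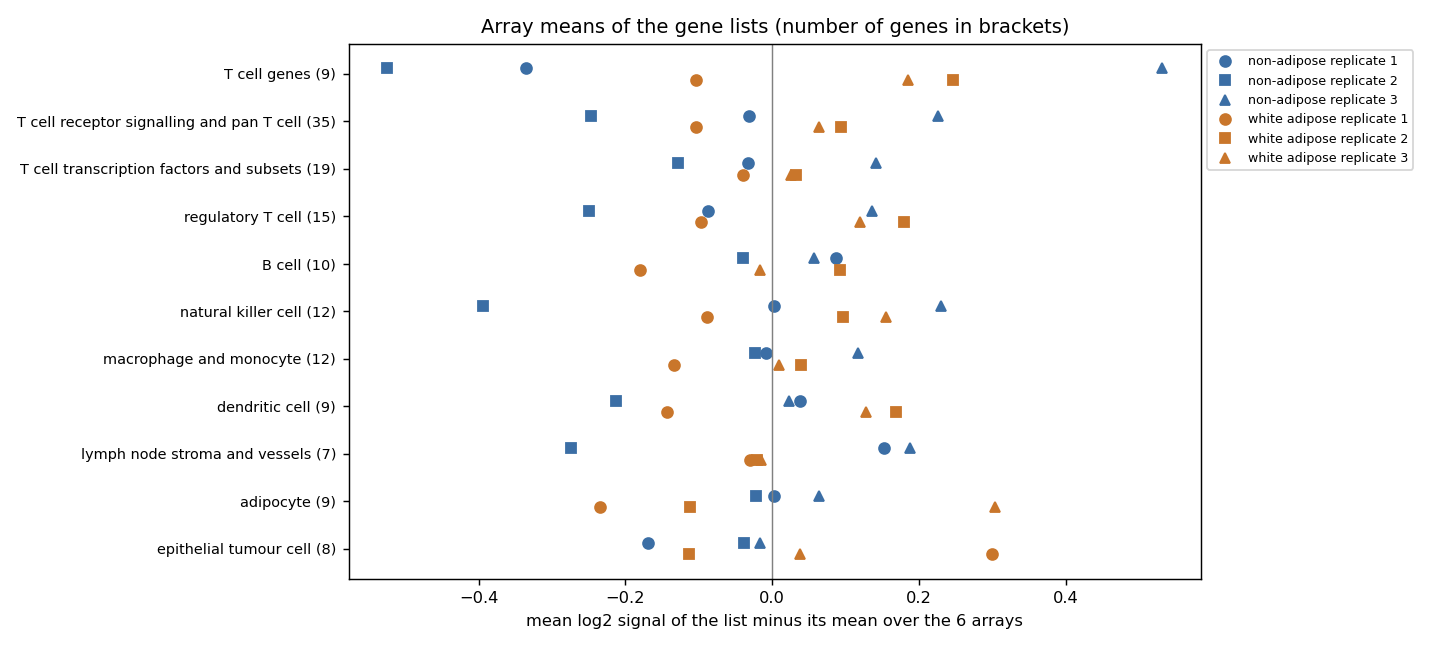
Mean log2 signal of each gene list on each array minus the list's mean over the 6 arrays (horizontal axis), with the number of genes in brackets; blue points are non-adipose and orange points white adipose tumours. The T cell genes spread most among the non-adipose tumours, followed by natural killer markers, and the macrophage and B cell lists spread less.

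The genes whose profile over the 6 arrays was most like the mean of Cd3d, Cd3e and Cd3g were Rassf2, Ctsw, Fmo5, H2-Q5 and Stac2, with Pearson r of 0.995, 0.991, 0.990, 0.989 and 0.987 as a measure of likeness alone. They were the closest of 17334 genes searched, of which 144 had an r over 0.9, and over 6 arrays such a likeness is easily met. Ctsw, which encodes a protease of cytotoxic lymphocytes, stood at 5.79, 5.80 and 6.78 in the non-adipose and at 6.20, 6.47 and 6.50 in the white adipose tumours. The MHC class I gene H2-Q5, which has close copies, stood at 5.90, 5.78 and 7.08 and at 6.20, 6.61 and 6.60. By the same measure Cd2 had an r of 0.939, Cd8a 0.933, Cd8b1 0.933 and Cd4 0.849, and Foxp3 0.510 and Zap70 0.383.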

How the data were processed

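Total RNA of 6 tumours was labelled as biotin cDNA and hybridised to Affymetrix whole-transcript arrays, per the labels' protocols. The deposited log2 signals of 41345 probe sets were made with Affymetrix Expression Console, per the submitters' processing notes; the sources used here do not give its version, its background correction or how arrays were normalized. The scale was read from the values (0.973 to 13.6, array medians 5.66 to 5.69).

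Probe sets with exactly 1 symbol in the platform annotation (23521) were kept, with the highest mean per gene, which left 22180 genes; the 9 measured T cell genes matched RefSeq by Entrez identifier. limma 3.58.1 in R 4.3.3 (lmFit, eBayes) compared the sites on all 6 arrays, with no filter and no block, and Benjamini-Hochberg adjustment over all genes. The number of arrays limits the precision: the median standard error was 0.0972 over all genes and 0.22 over the 9 T cell genes (0.065 to 0.57), 8 of them above 0.0972. In 10 simulated runs, 200 of 22180 genes were changed. The noise was normal, independent between genes and of the size the same fit had estimated for each gene. The fit recovered 98.3% of the 4-fold changes and 87.2% of the 2-fold ones among genes drawn from all 22180. Genes on real arrays can vary together, so these rates need not hold for the deposited data. Recovery for genes as noisy as the T cell genes was not simulated. Mean deviations of same-numbered arrays correlated at 0.14, 0.064 and 0.064, and those of different-numbered arrays at -0.18 to 0.086. These values are too small and too few to tell whether the numbers pair the tumours.

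The T cell genes and all lists were chosen with earlier results of these data known. Named were the T cell genes, a set of defining genes and the 5 closest profiles. Up to 4 genes of smallest p were named from the T cell signalling, regulatory and subset lists. Some further genes were named after their values were seen. Marker lists entered as array means, and their genes of smallest p were not all named.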

Additional observations from a re-analysis of the deposited data

How the results depend on the processing

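No gene passed an adjusted p of 0.05 in limma's fit under any of the 15 other settings tried: each array left out, the replicate block, array medians subtracted, quantile normalization, trend or robust moderation, array weights, dim genes left out, probe sets averaged, or, chosen after seeing the data, both non-adipose replicates 2 and 3 left out, where the lone non-adipose array is assumed to vary like the others. With all arrays 841 genes were at an unadjusted p under 0.05. The smallest adjusted p of a T cell gene under any setting was 0.676. With 1 array left out, the difference ran from -0.039 to 0.39 for Cd2, 0.13 to 0.44 for Cd3d, -0.033 to 0.72 for Cd3e, 0.16 to 1.27 for Cd3g, 0.066 to 0.47 for Cd4, -0.14 to 0.95 for Cd8a, -0.27 to 0.49 for Cd8b1, -0.21 to 0.036 for Zap70 and 0.019 to 0.082 for Foxp3, and 6 to 9 of the 9 genes had a higher mean in white adipose tumours. Cd8b1 was also below 0 without non-adipose replicate 1 (-0.15), white adipose replicate 2 (-0.045) or white adipose replicate 3 (-0.077). Zap70, at -0.046 with all arrays, was at 0.0043 with array weights and at 0.28 without both non-adipose replicates 2 and 3. The lowest array weight, 0.43, was that of white adipose replicate 1, which had the lowest Zap70 value of its group. Leaving out both replicates kept only non-adipose replicate 1, the lowest of all arrays for Zap70. The replicate block changed no call (Cd3g 0.64, limma adjusted p = 0.885). With 1 array of each group per replicate number, it cannot move a difference. It did lower the standard error of Cd3g from 0.57 to 0.44 and of Cd3e from 0.44 to 0.29. For Cd4 and Foxp3 the standard error rose slightly. Leaving out dim genes removed Cd3d, Cd2 and Zap70. A probe set annotated to Foxp3 and 2 neighbouring genes differed by 0.011.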
